A study of Mus musculus with 2 samples.

Results

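The antigen presentation and interferon response genes are 45 mouse genes in 3 classes, namely 14 of the class I presentation pathway, 6 of the class II pathway and 25 that interferons induce. They were chosen by name, and all 45 are among the 26897 genes that both count tables of the series hold. Each was followed in single cells of the oviduct epithelium of C57BL/6 mice, in 1 adult library taken at estrus (406 cells) and 1 library from postnatal day 4 (P4, 263 cells). Cells were freed with enzymes, sorted by FACS with antibodies to Epcam and CD45 and read as 10x Chromium 3′ (V2) libraries, and the number of animals behind each library is not given in the sources used here. The authors deposited a cluster number for every cell, 5 adult clusters (0, 1, 3, 4 and 5) and 2 P4 clusters (0 and 1).

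Class I molecules carry peptides of proteins made inside a cell to its surface. They consist of a heavy chain and beta-2 microglobulin, and their peptides are cut by the immunoproteasome and pumped into the endoplasmic reticulum by the TAP transporter. Class II molecules carry peptides of engulfed material and are best known from professional antigen-presenting cells, although epithelia can make them under interferon gamma. Interferons bind surface receptors and act through STAT and IRF transcription factors on interferon-stimulated response elements (ISRE), which switch on antiviral genes and part of the presentation pathway. The oviduct carries gametes and the early embryo, and its lining of secretory and multiciliated cells is open to the uterus at one end and to the peritoneal cavity at the other.

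Motifs of the response were found in different shares of the promoters of each class. A RefSeq promoter (250 bases before to 50 after the start, GRCm38.p6) was found for 38 of the 45 members. The ISRE core, here GAAA, any 2 bases and GAAA again, searched on both strands, lay in 60.9% of 23 interferon-induced promoters, in 16.7% of 12 class I promoters and in 3.99% of all 27025 genes with a promoter. The kappa B motif (GGGA, any base, T, any 2 bases and CC) together with the inverted CCAAT box ATTGG, both strands, lay in 5 of 6 class I heavy chain promoters and in 2.19% of all genes. Either alone was commoner, at 4.79% of all genes for kappa B and 41.1% for the CCAAT box. The gamma activation element TTCNNNGAA lay in 7 of the 23 interferon-induced promoters and in 9.55% of all genes. Matches of different motifs overlapped in 3 members, ISRE core and gamma activation element in Bst2 and Ifitm3 and kappa B and CCAAT box in H2-M3. A match is a description of the letters in this window and not a bound site. Shown here are 2 class I heavy chain genes that were higher in secretory-like cells, and 4 interferon-induced genes that differ in their pattern over cells. Capitals mark overlapping or adjoining kappa B matches in H2-K1, at chr17:34000298-34000597 (minus strand), and in H2-D1, at chr17:35262844-35263143 (plus strand). In Isg15, at chr4:156200769-156201068 (minus strand), in Bst2, at chr8:71537423-71537722 (minus strand), and in Ifitm3, at chr7:141010695-141010994 (minus strand), capitals mark ISRE core matches. The window of Ifitm1, at chr7:140967826-140968125 (plus strand), held no match to the ISRE core. It lies inside the gene as GENCODE M21 places it and does not cover that start, at 140967221.
H2-K1: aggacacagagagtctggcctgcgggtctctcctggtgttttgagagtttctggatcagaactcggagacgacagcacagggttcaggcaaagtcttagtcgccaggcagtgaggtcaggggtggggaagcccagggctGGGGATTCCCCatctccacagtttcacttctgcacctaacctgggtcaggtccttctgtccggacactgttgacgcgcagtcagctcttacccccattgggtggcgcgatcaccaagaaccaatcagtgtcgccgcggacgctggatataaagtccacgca
H2-D1: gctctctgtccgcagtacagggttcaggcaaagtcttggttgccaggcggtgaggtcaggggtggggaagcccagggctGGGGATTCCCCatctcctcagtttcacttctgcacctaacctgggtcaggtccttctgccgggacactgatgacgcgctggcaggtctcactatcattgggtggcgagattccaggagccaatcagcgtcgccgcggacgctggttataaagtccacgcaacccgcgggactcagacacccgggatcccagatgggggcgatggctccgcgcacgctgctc
Isg15: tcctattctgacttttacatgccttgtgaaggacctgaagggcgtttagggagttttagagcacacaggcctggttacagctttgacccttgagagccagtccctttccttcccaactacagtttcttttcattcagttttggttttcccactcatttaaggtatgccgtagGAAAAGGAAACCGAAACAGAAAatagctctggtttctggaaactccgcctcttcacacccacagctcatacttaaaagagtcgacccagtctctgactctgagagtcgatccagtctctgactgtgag
Bst2: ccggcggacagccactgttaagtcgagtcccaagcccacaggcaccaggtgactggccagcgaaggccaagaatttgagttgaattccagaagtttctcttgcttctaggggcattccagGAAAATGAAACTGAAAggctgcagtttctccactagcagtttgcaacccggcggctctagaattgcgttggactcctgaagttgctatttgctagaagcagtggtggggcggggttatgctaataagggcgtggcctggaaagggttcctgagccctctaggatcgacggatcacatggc
Ifitm3: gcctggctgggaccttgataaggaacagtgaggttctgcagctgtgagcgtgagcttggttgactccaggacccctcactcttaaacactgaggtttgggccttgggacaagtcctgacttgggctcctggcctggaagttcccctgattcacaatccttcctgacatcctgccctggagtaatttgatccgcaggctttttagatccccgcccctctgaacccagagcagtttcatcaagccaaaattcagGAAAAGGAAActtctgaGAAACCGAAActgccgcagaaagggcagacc
Ifitm1: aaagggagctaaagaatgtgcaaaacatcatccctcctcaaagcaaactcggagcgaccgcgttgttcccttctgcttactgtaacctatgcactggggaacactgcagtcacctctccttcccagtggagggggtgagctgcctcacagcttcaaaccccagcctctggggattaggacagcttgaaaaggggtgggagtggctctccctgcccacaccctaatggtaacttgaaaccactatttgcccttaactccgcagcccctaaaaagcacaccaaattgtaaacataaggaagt

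The 3 matches in Isg15 began 78, 72 and 66 bases before the start and overlapped, while those in Ifitm3 lay 2 and 19 bases behind it. Ifitm1, Ifitm2 and Ifitm3 are neighbours on chromosome 7 (GENCODE M21, GRCm38). They span from 140954837, the lowest coordinate of Ifitm2, to 141010770, the highest of Ifitm3, and these 2 genes lie on the minus strand.

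A level is the number of unique molecular identifiers (UMI) of a gene pooled over the cells of a group, per 10000 UMI of the shared genes, and brackets hold its exact 95% Poisson interval. The adult library held 1376605 such UMI (median 3178 per cell) and the P4 library 1839488 (median 6576). No barcode occurred in both libraries, and 401 of the 406 adult barcodes were listed under 2 prefixes with nearly the same counts and were used once. With 1 library per age there is no replicate and no test, and intervals cover counting error only. A gene counts as measured where 10% or more of the cells of at least one group had a UMI, and as higher or lower at a 2-fold difference, with 0.1 added to each level. Counts of called members are read against the same count over all measured genes. The clusters themselves were made from expression, so differences between clusters are descriptions.

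Cluster names were checked against markers. Multiciliated markers summed to 4.67 per 10000 in adult cluster 4 and 3.02 in cluster 0, against 120 in cluster 3 and 170 in cluster 1. Clusters 1 and 3 are called multiciliated-like and clusters 0 and 4 secretory-like, the secretory product Ovgp1 standing at 287 in cluster 4 and 59.7 in cluster 0. None of the multiciliated markers was among the 10 leading genes of cluster 3, which began with Wfdc12, Ly6c1 and Ly6a. Of the leading genes of cluster 5, 5 of 10 were smooth muscle markers, so it is called by its number, and the P4 clusters likewise. The epithelial marker Epcam stood at 5.16 in adult cells and 5.39 in P4 cells, and Ptprc, which encodes CD45, had 0 UMI in both. As a background for shares of cells, multiciliated genes had a UMI in some of the 161 cells of clusters 0 and 4 (median 3169 UMI), Tmem212 in 4.97%, Dynlrb2 in 5.59%, Foxj1 in 6.21% and Ccdc153 in 12.4%. In the 220 cells of clusters 1 and 3 (median 3145 UMI), these shares were 80.0% for Tmem212, 95% for Dynlrb2, 70.0% for Foxj1 and 95.9% for Ccdc153. Ovgp1 had a UMI in 90.7% of cells of clusters 0 and 4 and 38.6% of cells of clusters 1 and 3. No doublet caller was run, and how the authors treated doublets is not given in the sources used here. Fibroblast markers had a UMI in 34.2% of adult cells and 94.7% of P4 cells.

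Class I genes were higher in secretory-like than in multiciliated-like cells of the adult oviduct. Summed over the 14 members, the level was 16.1 (15.0 to 17.1) in clusters 0 and 4 and 5.28 (4.76 to 5.85) in clusters 1 and 3, a ratio of 3.04 (2.69 to 3.44). Of the 7 class I members measured, 6 were called higher and 0 lower, where 11.1% of 5077 measured genes were higher and 24.5% lower. Of the 6, H2-K1, H2-Q4 and Psmb8 reached the minimum share of cells in clusters 0 and 4 only, and the other 3 in both classes. Members measured through the high group only had to differ, so the count of 6 supports nothing by itself.

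B2m, the light chain shared by all class I molecules, had a level of 4.70 in clusters 0 and 4 (265 UMI) and 1.82 in clusters 1 and 3 (128 UMI). The classical heavy chain gene H2-K1 stood at 2.09 in clusters 0 and 4 and 0.384 in clusters 1 and 3, a ratio of 5.44 (3.56 to 8.60). H2-D1, the other classical heavy chain gene, stood at 3.71 in clusters 0 and 4 and 1.31 in clusters 1 and 3, a ratio of 2.83 (2.20 to 3.65). The promoters of H2-K1, H2-D1, H2-Q4, H2-Q7 and H2-M3 held both the kappa B motif, in capitals above for H2-K1 and H2-D1, and the CCAAT box, while that of H2-T23 held no kappa B match. The non-classical heavy chain gene H2-Q4 gave the widest difference of the class, 108 UMI in clusters 0 and 4 (level 1.91) and 15 UMI in clusters 1 and 3 (0.214), a ratio of 8.96 (5.20 to 16.6). H2-T23, which encodes the Qa-1 molecule read by natural killer cell receptors, was within 2-fold once 0.1 was added, at 0.816 in clusters 0 and 4 and 0.399 in clusters 1 and 3 (ratio 2.05, 1.25 to 3.40). The shares of cells gave the same order at equal depth: thinned to 1000 UMI, 14.8% of cells of clusters 0 and 4 and 3.71% of cells of clusters 1 and 3 would show H2-K1.

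Of the loading machinery, 2 genes were higher as well. Tapbp, which encodes tapasin and holds empty class I molecules at the TAP transporter, stood at 1.24 in clusters 0 and 4 and 0.541 in clusters 1 and 3. Psmb8, an immunoproteasome subunit, had 27 UMI in clusters 0 and 4 (level 0.479) and 5 UMI in clusters 1 and 3 (0.0712). Its partner subunits were not measured, Psmb10 with 20 UMI in clusters 0 and 4 and 7 UMI in clusters 1 and 3, and Psmb9 with 11 UMI in clusters 0 and 4 and 10 UMI in clusters 1 and 3. The transporter genes had few UMI, Tap1 8 in clusters 0 and 4 and 5 in clusters 1 and 3, and Tap2 17 in clusters 0 and 4 and 12 in clusters 1 and 3. Nlrc5, the transactivator of class I genes, had 3 UMI in adult cells and 0 in P4 cells. H2-Q7 (3 adult and 6 P4 UMI) and H2-M3 (8 adult and 2 P4 UMI) were near the floor as well. Dissociation stress genes were also higher in the pooled secretory-like cells, at 138 in clusters 0 and 4 and 86.5 in clusters 1 and 3. Single clusters had another order for stress genes than for class I. Stress genes stood at 44.5 in cluster 4, 150 in cluster 0, 198 in cluster 3 and 63.4 in cluster 1. Their part in the class I difference was not tested.

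Among adult clusters, the class I sum was 22.1 (19.4 to 25.1) in cluster 5, 22.7 (19.0 to 26.8) in cluster 4 and 15.3 (14.2 to 16.4) in cluster 0. It was 9.10 (7.48 to 11.0) in cluster 3 and 4.49 (3.96 to 5.07) in cluster 1. In cluster 4, 1 cell held 35 of the 136 class I UMI, and without it the sum was 17.6 (14.4 to 21.4), which overlaps the intervals of clusters 5 and 0. Those of clusters 5, 0, 3 and 1 do not overlap each other. The P4 clusters lay between the adult extremes, at 7.98 (7.26 to 8.74) in P4 cluster 1 and 8.50 (8.0 to 9.03) in P4 cluster 0, and overlap each other and cluster 3. Set beside all P4 cells, H2-K1 was 2.09 in adult clusters 0 and 4 and 1.02 at P4, while adult clusters 1 and 3 stood at 0.384.

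**Figure D1:**
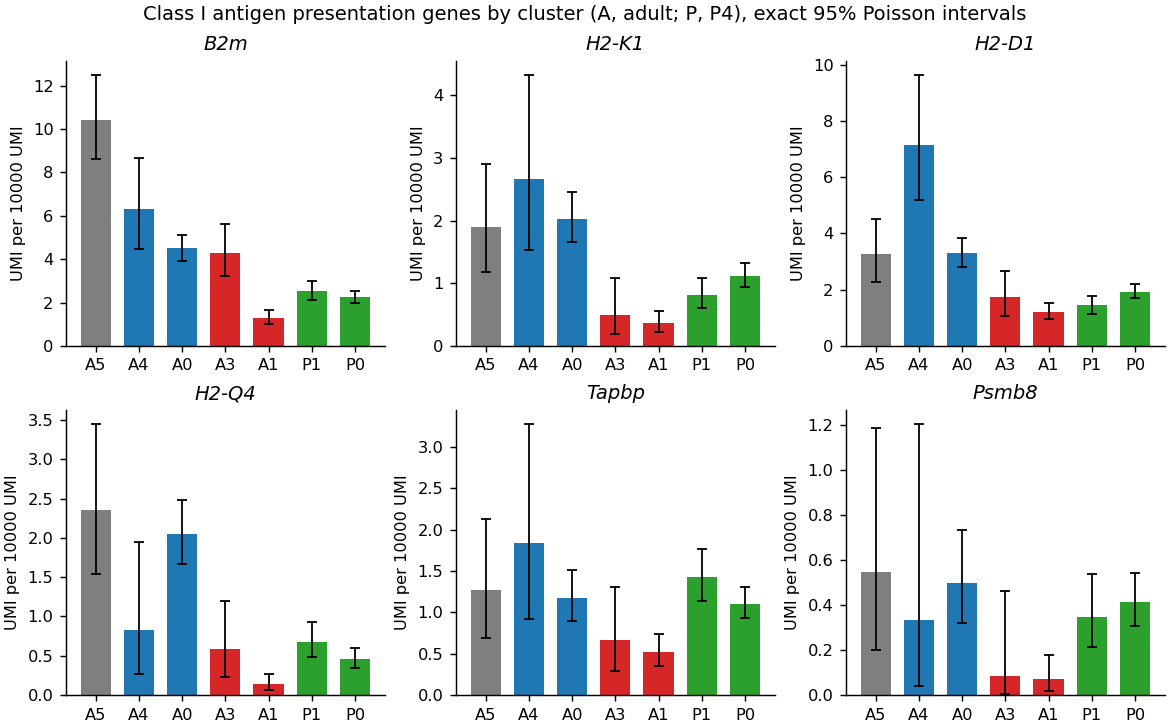
Bars give the levels of 6 class I members (UMI per 10000 UMI, linear axes from 0, with exact 95% Poisson intervals) in adult clusters 5, 4, 0, 3 and 1 (A5 to A1) and P4 clusters 1 and 0 (P1 and P0), each bar being 1 pooled value of 1 library. H2-K1 stood at 2.67 in cluster 4 and 2.02 in cluster 0, against 0.496 in cluster 3 and 0.361 in cluster 1.

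Class II genes had few UMI, held by few cells. The 6 members summed to 76 UMI in the adult library (level 0.552, 0.435 to 0.691) and 176 UMI in the P4 library (0.957, 0.821 to 1.11). Cd74, the invariant chain that guides class II molecules, gave 52 UMI of the adult sum and 120 UMI of the P4 sum, and was the sole class II member measured in that comparison. It was within 2-fold, at 0.378 in adult cells and 0.652 in P4 cells. The alpha and beta chain genes were sparser: H2-Aa had 3 adult and 11 P4 UMI, H2-Ab1 12 adult and 18 P4 UMI, and H2-Eb1 5 adult and 17 P4 UMI. H2-DMa, whose product exchanges peptides on class II molecules, had 4 adult and 10 P4 UMI. Ciita, the master regulator of class II transcription, had 0 UMI in both libraries.

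In the adult library, class II UMI lay mainly in cluster 0, with 60 UMI (level 1.19, 0.908 to 1.53), against 10 UMI in cluster 1, 5 in cluster 5, 1 in cluster 4 and 0 in cluster 3. The secretory-like clusters together had 1.08 and the multiciliated-like ones 0.142, a ratio of 7.59 (3.86 to 16.6). These sums rest on single cells: the 5% of adult cells with the most (21 cells) held 89.5% of the class II UMI, and 29 of 406 adult cells had any. The same share of P4 cells (14 cells) held 73.3%, and 54 of 263 P4 cells had any. Genes of few UMI are held by few cells: of the class I genes, Psmb8 (38 adult UMI) had 71.1% and H2-T23 (81 adult UMI) 58.0% of its adult UMI in the top 5% of cells. The adult cell with the most, of cluster 0, had 21 class II UMI, namely 13 of Cd74, 5 of H2-Ab1 and 3 of H2-Eb1, beside 38 UMI of Ovgp1.

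At P4, 2 cells of cluster 0 held 66 of the 176 class II UMI. The first had 36 class II UMI from 5 genes, with 97 UMI of epithelial and 81 UMI of multiciliated markers. The other had 30 class II UMI from 3 genes with 87 epithelial marker UMI, and it also led the P4 cells in interferon-induced UMI outside the Ifitm family (26 UMI, of them 9 of Gbp2 and 6 of Bst2). None of these 3 cells had a UMI of the 24 leukocyte, macrophage, T, NK or B cell markers found in the tables. Cells with 5 or more UMI of those markers numbered 4 at P4, all of cluster 0 and with at most 8 epithelial marker UMI, and they held 3 class II UMI. The one with the most had 68 immune marker UMI, among them 15 of C1qa and 17 of C1qc. Of the marker lists, that of leukocytes summed to 1.38 in adult cells (158 of its 190 UMI from Cd53) and 0.587 in P4 cells, with Ptprc at 0, and that of macrophages and dendritic cells to 0.392 in adult cells and 0.370 in P4 cells, with Adgre1 and Itgax at 0. Of class II UMI, 25 of 76 in adult cells and 25 of 176 in P4 cells lay in cells with any immune marker UMI. These cells were singled out after their values were seen.

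Of the interferon-induced members, Ifitm1 had the largest log2 difference between the adult cell classes (-4.41, with 0.1 added to each level). It encodes a membrane protein that restricts virus entry and, in early mouse embryos, is known from cells of the primitive streak. Its level was 2.18 (123 UMI) in clusters 0 and 4 and 48.2 (3387 UMI) in clusters 1 and 3, a ratio of 0.0452 (0.0375 to 0.0541). Cell by cell, the median of Ifitm1 was 0 in cluster 4, with 26 of 31 cells at 0, and 0 in cluster 0, with 92 of 130 cells at 0, against 56.1 in cluster 1, with 11 of 183 cells at 0. In cluster 3 the pooled level was 20.7 and the median over cells 1.67, as 18 of 37 cells were at 0 and 1 cell gave 115 of the 250 UMI. Without that cell the pooled level was 11.7 (9.77 to 13.8). Cluster 5 had a median of 18.2 with 4 of 25 cells at 0.

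In P4 cells Ifitm1 was found in nearly every cell. The median was 48.8 in P4 cluster 1, with 0 of 95 cells at 0, and 25.6 in P4 cluster 0, with 2 of 168 cells at 0. Thinned to 1000 UMI, 53.0% of adult cells and 90.2% of P4 cells would show it. The pooled levels of all adult cells (27.5) and all P4 cells (33.8) differ by less than 2-fold, although the medians of adult clusters ranged from 0 in clusters 4 and 0 to 56.1 in cluster 1. The neighbouring family members did not separate in this way: Ifitm2 stood at 16.4 in clusters 0 and 4 and 10.1 in clusters 1 and 3, and Ifitm3 at 36.3 in clusters 0 and 4 and 43.3 in clusters 1 and 3. Ifitm3 ranged from 35.9 in cluster 0 to 51.4 in P4 cluster 1 over all 7 clusters, and Ifitm2 from 9.80 in cluster 1 to 19.3 in cluster 4.

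**Figure D2:**
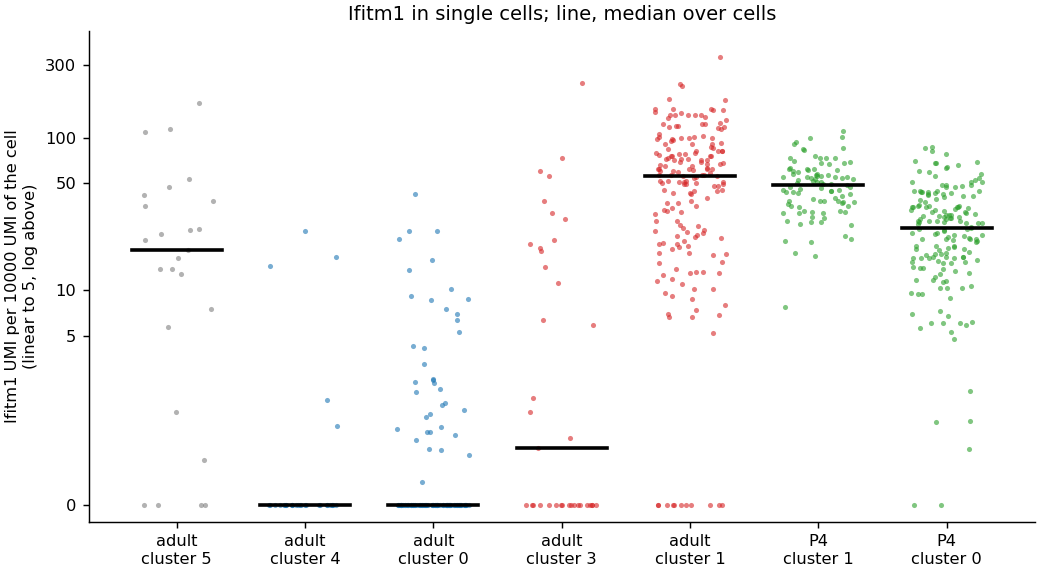
Ifitm1 in every cell (UMI per 10000 UMI of the cell, axis linear to 5 and logarithmic above) by cluster, 1 point per cell, with a line at the median over cells. Cells of adult clusters 4 and 0 sit mostly at 0, those of cluster 3 spread between 0 and 228, and those of cluster 1 and of both P4 clusters sit mostly above 10.

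Beside Ifitm1, Usp18 and Ifi35 were lower in secretory-like than in multiciliated-like cells, and no interferon-induced member was higher among the 11 measured. This holds for the pooled classes only, since cluster 0 alone had Irf1, Oasl2 and Irf9 higher than cluster 1 alone. Usp18, the protease that takes the ubiquitin-like protein Isg15 off its targets, had 3 UMI in clusters 0 and 4 and 84 UMI in clusters 1 and 3, a ratio of 0.0445 (0.00899 to 0.134). Ifi35 stood at 0.266 in clusters 0 and 4 and 0.997 in clusters 1 and 3. Usp18 and Ifi35 reached the minimum share of cells in clusters 1 and 3 only. In this comparison 6 of 7 measured class I members were higher and 0 lower. Of the 11 measured interferon-induced members 0 were higher and 3 lower, a share near the 24.5% of all genes that were lower. H2-K1, H2-Q4, Psmb8, Usp18 and Ifi35 were measured through their high group only, so these counts support nothing by themselves.

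The interferon-induced genes other than the Ifitm family were highest in cluster 3. These 22 members summed to 24.8 (21.9 to 27.9) in cluster 5, 13.5 (10.7 to 16.8) in cluster 4 and 10.4 (9.49 to 11.3) in cluster 0. The sum was 35.8 (32.5 to 39.4) in cluster 3 and 8.22 (7.5 to 8.99) in cluster 1, and 8.12 (7.40 to 8.88) in P4 cluster 1 and 5.84 (5.42 to 6.27) in P4 cluster 0. The median cell of cluster 3 had UMI from 4 of the 22 genes, and the median cell of cluster 1 from 1.

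Against cluster 1, cluster 3 had 12 members higher and 1 lower of 21 measured, where 11.6% of 5367 measured genes were higher and 9.15% lower. Of the 12, 10 were interferon-induced, and 8 reached the minimum share of cells in cluster 3 only (Gbp3, H2-Q4, Ifit1, Irf1, Irf7, Irf9, Isg15 and Xaf1). A member that is measured through the high group only had to differ, so the count supports nothing by itself. The other 4, Bst2, Oasl2, Ifi35 and B2m, reached the share in both clusters. Bst2, which encodes tetherin and holds budding viruses at the cell surface, stood at 13.7 (166 UMI) in cluster 3 and 1.24 (72 UMI) in cluster 1, a ratio of 11.1 (8.36 to 14.8). It had a UMI in 83.8% of the 37 cells of cluster 3 and 22.4% of the 183 cells of cluster 1, which thinned to 1000 UMI become 65.3% in cluster 3 and 9.83% in cluster 1. Isg15 had 30 UMI in 10 cells of cluster 3 (level 2.48) and 9 UMI in 5 cells of cluster 1 (0.155), a ratio of 16 (7.42 to 38.4). Of the 10 interferon-induced members that were higher, 4 held an ISRE core in the promoter window (Bst2, Isg15, Ifit1 and Gbp3) and Irf7, Irf9, Irf1, Oasl2, Xaf1 and Ifi35 none.

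Of the transcription factor genes among the members, Irf7, Irf9 and Irf1 were higher in cluster 3 and Stat2 was not measured. Irf7, which drives the interferon genes and their targets in a feedback loop, stood at 1.32 in cluster 3 and 0.120 in cluster 1 (16 UMI in cluster 3 and 7 UMI in cluster 1). Irf9, the DNA-binding part of the ISGF3 complex, stood at 1.16 in cluster 3 and 0.224 in cluster 1. Irf1, a factor that also answers to interferon gamma, stood at 1.90 in cluster 3 and 0.327 in cluster 1. Stat2, the partner of Irf9 in ISGF3, had 3 UMI in cluster 3 and 0 in cluster 1.

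Of the antiviral effectors, Ifit1, which binds foreign RNA ends, had 13 UMI in cluster 3 and 1 UMI in cluster 1, a ratio of 62.5 (9.39 to 2656). Oasl2, a member of the oligoadenylate synthetase family, stood at 2.32 in cluster 3 and 0.464 in cluster 1, and Xaf1 at 1.32 in cluster 3 and 0.189 in cluster 1. Gbp3, a guanylate-binding protein gene, had 7 UMI in cluster 3 and 0 in cluster 1, at least 11.2-fold higher against a floor of 3 UMI over the group. Ifi35 stood at 1.90 in cluster 3 and 0.808 in cluster 1. Ifi27, at 6.04 in cluster 3 and 2.98 in cluster 1, was within 2-fold once 0.1 was added. Ifitm1 was the member that was lower, at 20.7 in cluster 3 and 54.0 in cluster 1. Of class I, B2m stood at 4.30 in cluster 3 and 1.31 in cluster 1, and H2-Q4 had 7 UMI in cluster 3 and 8 in cluster 1 (levels 0.579 in cluster 3 and 0.138 in cluster 1). Stress genes were also higher, at 198 in cluster 3 and 63.4 in cluster 1, as was Lyz2 with 23 UMI in cluster 3 (18 of them in 1 cell) and 1 in cluster 1. Cluster 3 also had more of the secretory product Ovgp1, at 25.1 with a UMI in 83.8% of its cells, against 6.28 and 29.5% in cluster 1. The secretory marker list summed to 60.2 in cluster 3 and 40.8 in cluster 1, and the epithelial list to 66.5 in cluster 3 and 32.0 in cluster 1. The part of any of these in the difference was not tested.

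**Figure D3:**
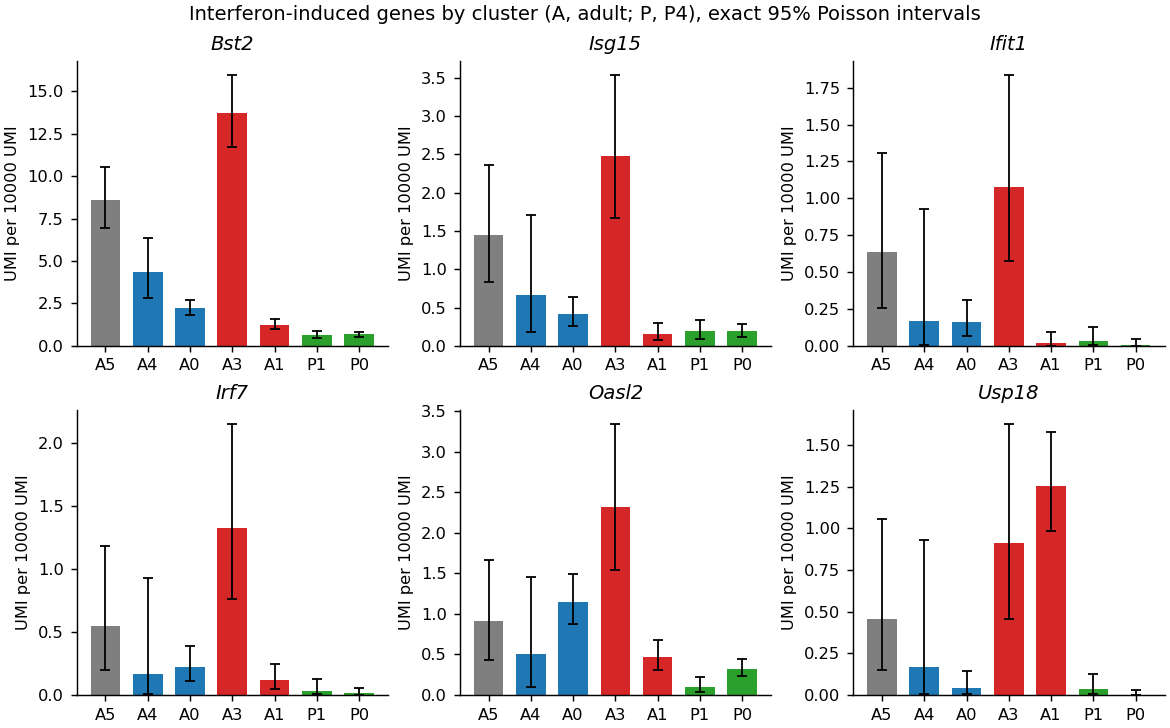
Bars give the levels of 6 interferon-induced members (UMI per 10000 UMI, linear axes from 0, with exact 95% Poisson intervals) in adult clusters 5, 4, 0, 3 and 1 (A5 to A1) and P4 clusters 1 and 0 (P1 and P0). Bst2 stood at 13.7 in cluster 3 and 8.61 in cluster 5, above the 4.33 of cluster 4, the 2.24 of cluster 0, the 1.24 of cluster 1 and the P4 clusters, at 0.659 in P4 cluster 1 and 0.673 in P4 cluster 0.

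In the authors' merged clustering of both ages, cluster 3 splits into 17 cells of merged cluster 0 and 19 of merged cluster 6. Bst2 was 8.02 in the 17 cells and 16.1 in the 19, while Isg15 was 2.44 in the 17 cells and 2.67 in the 19. Both values lie above the 1.24 of Bst2 and the 0.155 of Isg15 in cluster 1. Ifit1 and Irf7 lay mainly in the 19 cells, with 12 of 13 Ifit1 UMI and 13 of 16 Irf7 UMI. The cells of merged cluster 6 alone gave 14 members higher than cluster 1, and those of merged cluster 0 alone gave 9. The share of all measured genes past 2-fold was not counted for these small groups, so the counts support nothing by themselves. In the 17 cells Ifitm1 stood at 52.7, but 115 of its 151 UMI lay in 1 cell, and the other 16 cells stood at 15.2 (10.7 to 21.1). H2-Q4 (0 UMI) and Ifi35 (2 UMI) of the 17 cells lay below cluster 1.

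Cluster 5 had 11 members higher and 1 lower than cluster 0 of 28 measured, where 14.8% of 5720 measured genes were higher and 8.44% lower. Of the 11, 8 reached the minimum share of cells in cluster 5 only, all but Ifitm1, Bst2 and B2m. Ifitm1 stood at 24.5 (270 UMI) in cluster 5 and 2.32 (117 UMI) in cluster 0, a ratio of 10.5 (8.46 to 13.2). Bst2 stood at 8.61 in cluster 5 and 2.24 in cluster 0, and B2m at 10.4 in cluster 5 and 4.50 in cluster 0. Isg15 had 16 UMI in cluster 5 and 21 UMI in cluster 0, and Ifit3, a partner of Ifit1, 16 UMI in cluster 5 and 1 UMI in cluster 0 (ratio 73.1, 11.4 to 3066). Psmb9 had 7 UMI in cluster 5 and 8 in cluster 0, Ifit1 likewise 7 in cluster 5 and 8 in cluster 0, and Ifi35 had 8 in cluster 5 and 12 in cluster 0. Rnf213, a large ubiquitin ligase gene, had 8 UMI in cluster 5 and 11 in cluster 0, and Usp18 had 5 in cluster 5 and 2 in cluster 0. Irf7 had 6 UMI in cluster 5 and 11 in cluster 0, with an interval of the ratio that includes 1 (0.757 to 7.35). Cd74 was lower, with 3 UMI in cluster 5 and 45 in cluster 0. Cluster 5 holds smooth muscle markers at 68.4, against 2.14 in cluster 0. Without its 7 cells with 10 or more smooth muscle UMI, Bst2 was 10.9, B2m 15.6 and Ifitm1 42.9. Of 29 measured members 12 were then higher, where 16.6% of all measured genes were.

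A single cell of cluster 5, singled out after its values were seen, carried much of the interferon-induced signal of that cluster. It held 73 UMI of the 22 interferon-induced members outside the Ifitm family among its 2378 UMI, a level of 307 (241 to 384), from 19 of the 22 genes. Rsad2, which encodes viperin, had 14 UMI in this cell, which are all those of cluster 5. Isg15 had 12 of the 16 UMI of the cluster, Bst2 9 of 95, Ifit3 6 of 16, and Irf7 and Rnf213 4 each. The cell had 24 UMI of Ovgp1, 7 of epithelial markers and 0 of immune markers. Without it, 3 members were higher in cluster 5, Ifitm1 at 24.7, Bst2 at 7.97 and Psmb9 with 5 UMI among the 24 other cells. The share of all measured genes that were higher without this cell was not counted. Isg15 then stood at 0.371 in cluster 5 and 0.417 in cluster 0, and Irf7 at 0.185 in cluster 5 and 0.218 in cluster 0. The next highest adult cell, also of cluster 5, had 50 such UMI from 4 genes, 25 of them Bst2 and 23 Ifi27.

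**Figure D4:**
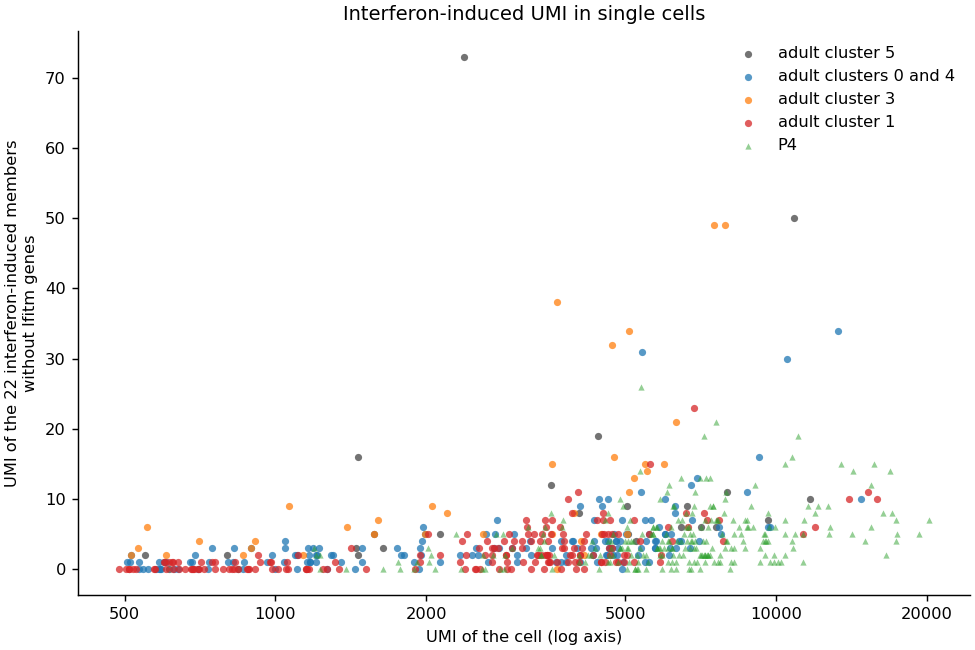
UMI of the 22 interferon-induced members outside the Ifitm family (linear axis) against all UMI of the cell (log axis), 1 point per cell, with colours for adult cluster 5, clusters 0 and 4, cluster 3 and cluster 1, and triangles for P4 cells. One cell of cluster 5 stands alone with 73 of its 2378 UMI, and per 10000 UMI the highest cells of the other groups were at 108 in cluster 3, 57.3 in clusters 0 and 4, 33.5 in cluster 1 and 48.4 in P4 cells.

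Within the secretory-like cells, cluster 4 had 3 members higher and 6 lower than cluster 0 of 20 measured, where 8.97% of 4383 measured genes were higher and 20.9% lower. Of the 6, 5 reached the minimum share of cells in cluster 0 only, all but Ifitm1. H2-D1 stood at 7.16 (43 UMI) in cluster 4 and 3.29 (166 UMI) in cluster 0, a ratio of 2.18 (1.52 to 3.06). H2-T23 had 11 UMI in cluster 4 and 35 in cluster 0 (levels 1.83 in cluster 4 and 0.694 in cluster 0), and Ifi27 stood at 5.33 in cluster 4 and 2.58 in cluster 0. Without the cell of cluster 4 with the most class I UMI, H2-D1 (5.76) and H2-T23 (1.22) were within 2-fold of cluster 0. Lower were H2-Q4 (5 UMI in cluster 4 and 103 in cluster 0), Irf1 (1 UMI in cluster 4 and 64 in cluster 0), Ifitm1 (6 UMI in cluster 4 and 117 in cluster 0), Cd74 (1 UMI in cluster 4 and 45 in cluster 0), Oasl2 (3 UMI in cluster 4 and 58 in cluster 0) and Irf9 (0 UMI in cluster 4 and 29 in cluster 0). The intervals of the ratios of Cd74, Oasl2 and Irf9 include 1. Cluster 4 is the shallowest, with 60021 UMI and a median of 1164 per cell, and its stress genes stood at 44.5, against 150 in cluster 0; the part of either in these values was not tested.

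Few members differed between the P4 clusters. P4 cluster 1 had 0 members higher and 1 lower than P4 cluster 0 of 24 measured, where 1.74% of 7625 measured genes were higher and 1.91% lower. The member that was lower was Oasl2, with 6 UMI in P4 cluster 1 and 41 in P4 cluster 0, a ratio of 0.320 (0.111 to 0.759). It reached the minimum share of cells in P4 cluster 0 only. Ifitm1 stood at 48.8 in P4 cluster 1 and 27.0 in P4 cluster 0, a ratio of 1.81 (1.72 to 1.90). Irf1 stood at 4.66 in P4 cluster 1 and 2.71 in P4 cluster 0, and Bst2 at 0.659 in P4 cluster 1 and 0.673 in P4 cluster 0.

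Adult cells had 6 members higher and 1 lower than P4 cells of 24 measured, where 11.5% of 7283 measured genes were higher and 10.4% lower. All 7 were interferon-induced, and none of the 8 class I members measured was past 2-fold. Of the 6, Usp18 and Ifi35 reached the minimum share of cells in the adult library only. Age cannot be told apart from library, sort, depth, annotation or estrous stage. Stress genes stood at 109 in adult cells and 97.5 in P4 cells.

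Ifi27 stood at 3.33 (459 UMI) in adult cells and 0.440 (81 UMI) in P4 cells, a ratio of 7.57 (5.97 to 9.71). Its level was higher in every adult cluster, from 2.58 in cluster 0 to 6.04 in cluster 3, than in P4 cluster 1 (0.555) and P4 cluster 0 (0.388). Bst2 stood at 3.43 (472 UMI) in adult cells and 0.669 (123 UMI) in P4 cells, a ratio of 5.13 (4.20 to 6.31), and here too the lowest adult cluster (1.24, cluster 1) was above both P4 clusters. At equal depth, 21.6% of adult cells and 6.06% of P4 cells would show Bst2, and 25.3% of adult cells and 4.70% of P4 cells Ifi27.

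Usp18 had 92 UMI in adult cells and 2 UMI in P4 cells, a ratio of 61.5 (16.5 to 515), and 73 of the adult UMI were in cluster 1. Isg15, whose protein Usp18 removes, had 80 UMI in adult cells (0.581) and 35 in P4 cells (0.190), and 30 of the adult UMI were in cluster 3. Ifi35 stood at 0.676 in adult cells and 0.141 in P4 cells, and Oasl2 at 0.915 in adult cells and 0.256 in P4 cells. With adult clusters 3 and 5 left out, Isg15 stood at 0.297 in adult cells, within 2-fold of the 0.190 of P4 cells, and the other 5 stayed past 2-fold. With adult clusters 0 and 4 alone against P4 cells, Usp18 (fold 1.38), Ifi35 (1.52) and Isg15 (1.87) were within 2-fold. Below the minimum share of cells, 6 members had an interval of the ratio above 1, namely Irf7 (41 adult and 4 P4 UMI), Ifit1 (30 adult and 3 P4 UMI), Ifit3 (18 adult and 2 P4 UMI), Rsad2 (20 adult and 8 P4 UMI), Tap2 (32 adult and 16 P4 UMI) and H2-M3 (8 adult and 2 P4 UMI).

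Irf1 went the other way. It stood at 0.864 (119 UMI) in adult cells and 3.32 (611 UMI) in P4 cells, a ratio of 0.260 (0.212 to 0.317). The highest adult cluster, cluster 3 at 1.90, was below both P4 clusters, P4 cluster 1 at 4.66 and P4 cluster 0 at 2.71. At equal depth, 8.08% of adult cells and 26.8% of P4 cells would show it.

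The class I sum was 11.0 (10.5 to 11.6) in adult cells and 8.34 (7.93 to 8.77) in P4 cells. B2m stood at 3.69 in adult cells and 2.33 in P4 cells, H2-K1 at 1.21 in adult cells and 1.02 in P4 cells, and H2-D1 at 2.45 in adult cells and 1.78 in P4 cells. Taken apart by cell class, adult clusters 0 and 4 pooled exceeded P4 for these genes and clusters 1 and 3 pooled lay below P4. H2-K1 had a ratio to P4 with an interval of 1.61 to 2.59 in clusters 0 and 4 and of 0.24 to 0.57 in clusters 1 and 3. Cluster 3 alone was above P4 for B2m, at 4.30 (interval of the ratio 1.36 to 2.46), and near P4 for H2-D1, at 1.74. The pooled adult level of 1.21 lies between that of clusters 0 and 4 (2.09) and that of clusters 1 and 3 (0.384), and so does the P4 level of 1.02.

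**Figure D5:**
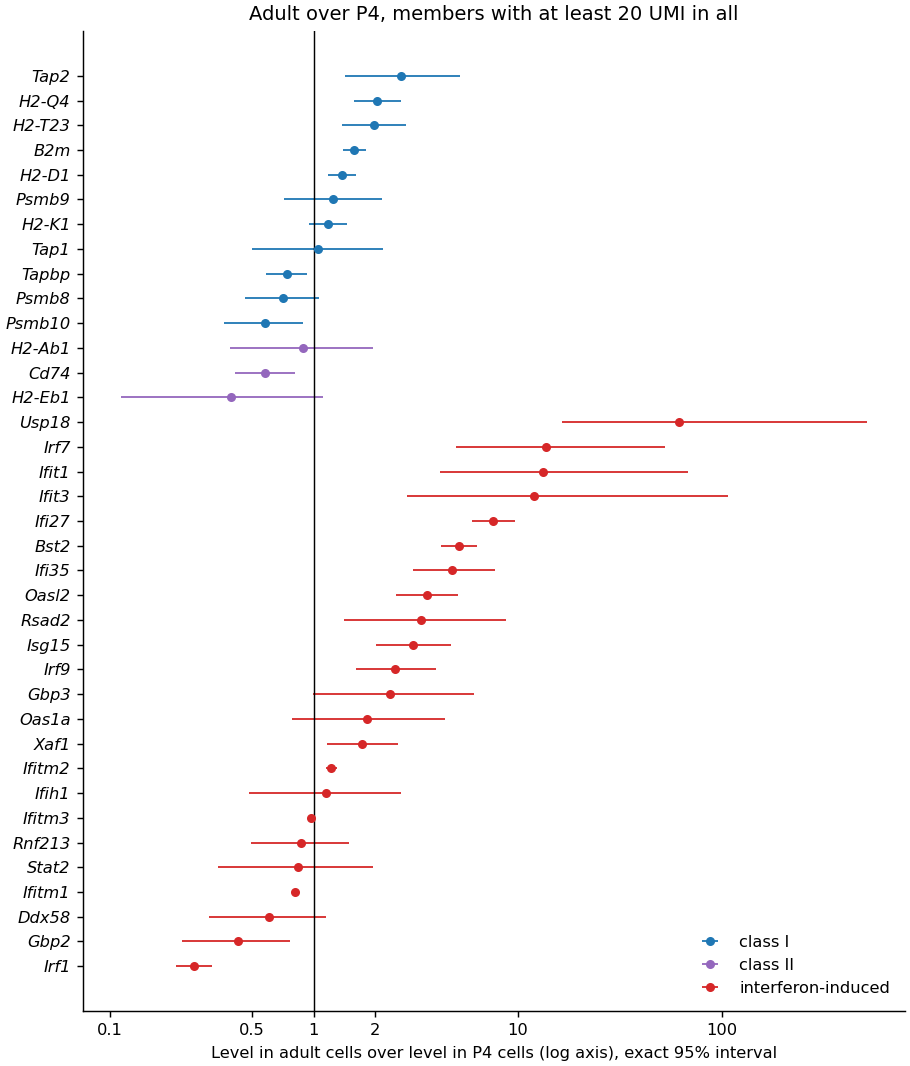
Ratio of the level in adult cells to that in P4 cells (log axis, line at 1) for members with UMI in both libraries and at least 20 UMI in all, by class, with exact 95% intervals. Right of 2 lie the 6 members called higher, Usp18, Ifi27, Bst2, Ifi35, Oasl2 and Isg15, and also Irf7, Ifit1, Ifit3, Rsad2, Tap2, Irf9, Gbp3 and H2-Q4, which were not measured or are within 2-fold once 0.1 is added. Irf1 at 0.260 lies farthest left, and class I members range from Psmb10 at 0.575 to Tap2 at 2.67.

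The other members were sparse or within 2-fold between the ages. Irf9 stood at 0.436 in adult cells and 0.174 in P4 cells, Xaf1 at 0.443 in adult cells and 0.256 in P4 cells, and Rnf213 at 0.174 in adult cells and 0.201 in P4 cells. The RNA sensor genes Ddx58 (15 adult and 33 P4 UMI) and Ifih1 (12 adult and 14 P4 UMI), Gbp2 (16 adult and 50 P4 UMI), Gbp7 (7 adult and 12 P4 UMI), Stat2 (10 adult and 16 P4 UMI), Oas1a (15 adult and 11 P4 UMI), Rsad2 (20 adult and 8 P4 UMI) and Ifit2 (1 adult and 2 P4 UMI) all stayed below a level of 0.3 in both libraries. Some members share sequence with copies: of the 91-base windows in the last 500 bases of the longest transcript, 42.2% of those of Oas1a occur in Oas1g, 26.1% of those of Ifitm2 in other gene models, 49 of 410 of those of H2-T23 in Hook2 or Rab33b, 6.34% of those of Ifit3 in Ifit3b and 4.88% of those of H2-Q4 in H2-Q6. How such reads were counted is not given in the sources used here, so the levels of these genes are uncertain. In GENCODE M21, exons of Tapbp, Irf9, Cd74, Gbp7 and Ifitm2 overlap exons of another gene on the same strand. How reads there were counted is not given either, so the same limit holds. Ifitm1, Bst2, Isg15, B2m, H2-K1 and H2-D1 shared no window.

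A further list of 87 genes of the same pathways, 85 of them in both tables, set the members in context. Its 7 measured class I genes held 2 that were higher in adult than in P4 cells, the chaperones Calr (6.86 in adult cells and 3.29 in P4 cells) and Pdia3 (8.52 in adult cells and 2.44 in P4 cells), and 1 that was lower, the peptide editor Tapbpl (16 adult and 71 P4 UMI), where 11.5% of all measured genes were higher and 10.4% lower. Calr and Pdia3 were also the 2 of 5 measured that were higher in secretory-like cells, where 11.1% of all measured genes were. Pdia3 stood at 14.9 in clusters 0 and 4 and 3.80 in clusters 1 and 3. Both chaperones serve the folding of many secreted proteins besides class I molecules.

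Of the signalling genes, 2 of 10 measured were higher in adult than in P4 cells and 0 lower, namely Ifnar2, a subunit of the type I interferon receptor (87 adult and 46 P4 UMI), and Il10rb, which pairs with the type III receptor (126 adult and 40 P4 UMI). Of all measured genes 11.5% were higher, so 2 of 10 is no result about the list. In secretory-like cells 2 of 8 were higher, where 11.1% of all measured genes were, Ifngr2 (64 UMI in clusters 0 and 4 and 35 in clusters 1 and 3) and Ifnar2 (54 UMI in clusters 0 and 4 and 27 in clusters 1 and 3). Il10rb was lower there, with 23 UMI in clusters 0 and 4 and 96 in clusters 1 and 3. Of the interferon genes themselves, Ifnb1, Ifng, Ifnk, Ifnl2 and Ifnl3 had 0 UMI in both libraries. Ifne, the interferon of the reproductive tract epithelium, had 9 adult UMI, 7 of them in cluster 5, and 1 P4 UMI.

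Of the further interferon-induced genes, 8 of 11 measured were higher in cluster 3 than in cluster 1 and 0 lower, where 11.6% of all measured genes were higher. In cluster 5, 7 of 15 were higher than in cluster 0 and 0 lower, where 14.8% of all measured genes were higher, and without the cell of cluster 5 with the most interferon-induced UMI 5 of 12 were higher. How many genes of this list reached the minimum share of cells in the higher group only was not counted. As for the members, such counts support nothing by themselves. Secretory-like cells had 3 of 7 higher (Sp100, Ly6e and Cxcl16) and 3 lower (Cmpk2, Lgals3bp and Isg20) than multiciliated-like cells, where 11.1% of all measured genes were higher and 24.5% lower. Ly6e stood at 5.18 in clusters 0 and 4 and 1.79 in clusters 1 and 3, and Cmpk2, the neighbour of Rsad2 in the antiviral response, had 1 UMI in clusters 0 and 4 and 40 in clusters 1 and 3. Adult cells had 3 of 11 higher than P4 cells and 0 lower, where 11.5% of all measured genes were higher: Isg20 (125 adult and 12 P4 UMI), Sp100 (63 adult and 12 P4 UMI) and Lgals3bp (83 adult and 26 P4 UMI). Of the class II list, H2-Ob had 0 UMI in clusters 0 and 4 and 52 in clusters 1 and 3, at least 13.9-fold lower against a floor of 3 UMI over the group, and all 52 were in cluster 1.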

How the data were processed

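Per the labels' protocols, both libraries were made with the 10x Chromium 3′ kit (V2). Per the submitters' processing notes, the tools were Cell Ranger and Seurat 2.3.4 and the build was mm10. No role is given for them, and no version for Cell Ranger. The authors deposited raw, unscaled counts of UMI per gene and cell for adult, P4 and merged cells. Separate tables give the cluster of each cell.

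The adult table had 807 columns for 406 barcodes, and for 401 barcodes listed under 2 prefixes the first prefix was kept (399 had the same cluster under both). Totals were taken over the 26897 genes of both tables, which leaves out 1.79% of adult and 13.4% of P4 UMI. Levels, ratios and shares were computed with Python 3.11.15, numpy 2.4.6, scipy 1.17.1 and pandas 2.3.3, with exact Poisson, conditional and Clopper-Pearson 95% intervals. Shares at equal depth are hypergeometric expectations at 1000 UMI for 318 adult and 263 P4 cells with that many. The functions were tested on simulated data. No test across cells was run, since cells are not replicates. No doublet caller was run.

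The members and lists were chosen with earlier results of these data known. Every member is described, those at least 2-fold different with their values. Of the further pathway list, values are given for genes 2-fold different between ages or between the 2 adult classes with 20 UMI on the higher side; Ifne was named after its values were seen. Alternatives were another pseudocount, filter, pooling, depth, prefix or table, scaling by edgeR 4.0.16 (TMM) or DESeq2 1.42.0 (median of ratios), totals without ribosomal protein and mitochondrial genes, and cells left out. Those on the top cells of clusters 3, 4 and 5, on the merged parts of cluster 3, on clusters 3 and 5 and on immune marker cells were added after the data were seen. Gene positions are from GENCODE M21 on GRCm38.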

Additional observations from a re-analysis of the deposited data

How the results depend on the processing

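Of 675 values of called members under the alternatives, 671 kept their direction and 610 were still at least 2-fold. These totals include settings that could not move a value. A change of the filter alone leaves each value as it was, and the other prefix holds nearly the same counts. The 4 that turned were Isg15 (log2 difference -0.13) and Irf7 (-0.16) in cluster 5 over cluster 0 without the cell with the most interferon-induced UMI, and H2-Q4 (-1.25) and Ifi35 (-0.19) in cluster 3 over cluster 1 with the cells of merged cluster 0 alone. Of 154 counts of called members, 118 were within 1.5 times the reported count. The cause of the moves below was not tested beyond what each setting removes.

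Between adult and P4 cells, a pseudocount of 0.5 left 3 members higher, a filter of 25% of cells left 2 and scaling each cell to 1000 UMI left 2. Of all measured genes 5.45%, 11.6% and 23.2% were higher under these settings, in that order. Without cells holding 2 or more non-epithelial markers (11 P4 cells remain), 3 of 17 measured were lower, where 29.3% of all measured genes were. With adult clusters 0 and 4 alone 2 of 22 were lower, against 14.6% of all measured genes. With clusters 1 and 3 alone 8 of 24 were lower, against 15.8%. Cluster 0 against cluster 1 gave 12 of 21 measured higher, where 12.7% of all measured genes were. Among the 12 were the interferon-induced members Irf1, Oasl2 and Irf9. For cluster 4 against cluster 0, 1 was higher with a pseudocount of 0.5, TMM scaling, median of ratios scaling, totals without ribosomal protein and mitochondrial genes, or the other prefix, 5 with no filter or with means over cells, and 6 without non-epithelial marker cells. There, 3 were lower with a pseudocount of 0.5, with cells scaled to 1000 UMI or without non-epithelial marker cells. Without those cells 14.9% of all measured genes were higher and 21.4% lower, with 19 members measured. With no filter 8.95% were higher, and with means over cells 11.5%. For cluster 3 against cluster 1, 2 were lower with means over cells or with the cells of merged cluster 0 alone.

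For cluster 5 against cluster 0, 5 were higher with a pseudocount of 0.5, 3 with the 25% filter or without the top cell and 4 with cells scaled to 1000 UMI, and 0 were lower with those 3 planned settings, without non-epithelial marker cells or without the 5% deepest cells. Of all measured genes, 3.22% were higher in cluster 5 with a pseudocount of 0.5, 8.93% with the 25% filter and 11.1% at 1000 UMI. For P4 cluster 1 against P4 cluster 0, 0 were lower with a pseudocount of 0.5, the 25% filter or 1000 UMI and 2 with no filter. Totals without ribosomal protein and mitochondrial genes gave 1 of 24 measured higher, where 2.05% of all measured genes were. Leaving out non-epithelial marker cells (6 cells in P4 cluster 1 and 5 in P4 cluster 0 remain) gave 8 higher and 2 lower of 19 measured. Of all measured genes 49.4% were then higher and 24.4% lower, so these counts are no result about the members. At 2000 UMI in place of 1000, 14 members in place of 7 reached the minimum share of cells. The 10% of adult cells with the most (41 cells) held 100% of class II UMI, which had to be so, since 29 adult cells had any.

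Without ribosomal protein and mitochondrial genes, all measured genes split into 10.0% higher and 15.4% lower between adult and P4 cells (median log2 difference -0.24), and 15.4% higher and 21.0% lower between clusters 0 and 4 and clusters 1 and 3 (median -0.03), with 6 and 8 members higher. TMM scaling gave 5.91% higher and 26.5% lower for cluster 4 against cluster 0 (median -0.40) and 11.3% higher and 12.2% lower for cluster 5 against cluster 0 (median -0.11). No paired analysis was possible because each age is 1 library, and no replicate was left out for the same reason. Depth limits the class II genes, the TAP genes and most effector genes to a few UMI per cluster, where 3 UMI equal 0.272 per 10000 in cluster 5 and 0.50 in cluster 4, so lower values there rest on fewer than 3 UMI.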

Other observations

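In the authors' merged clustering, the 21 adult cells of merged cluster 6 had Bst2 at 14.9 (12.6 to 17.5), Isg15 at 2.32 (1.47 to 3.49), Oasl2 at 2.12 (1.31 to 3.24) and Ifitm1 at 12.3 (10.2 to 14.7). The 197 adult cells of merged cluster 0, mainly those of adult cluster 1, had Bst2 at 1.39 (1.10 to 1.74), Isg15 at 0.282 and Ifitm1 at 57.4 (55.4 to 59.4). The 98 adult cells of merged cluster 2 and the 85 of merged cluster 4 hold most of the secretory-like cells. These merged clusters also hold 12 and 11 cells of cluster 5, in that order. Their class I sums were 16.6 (15.6 to 17.7) in merged cluster 2 and 14.5 (12.3 to 16.9) in merged cluster 4, against 4.44 (3.91 to 5.03) in merged cluster 0 and 8.89 (7.13 to 11.0) in merged cluster 6. Of this class, H2-Q4 stood at 2.16 in merged cluster 2 and 0.0898 in merged cluster 4. No P4 cell was in merged clusters 2, 4 or 6.

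Of 406 adult cells, 58 had a UMI of Isg15, Ifit1 or Irf7, and 12 had UMI of at least 2 of these 3 genes, 5 of them in cluster 3 and 4 in cluster 0. Of 263 P4 cells, 31 had a UMI of any and 3 of at least 2, with medians of 3178 UMI in adult cells and 6576 in P4 cells. UMI of 5 or more of the 22 interferon-induced genes outside the Ifitm family were found in 15 of 37 cells of cluster 3, 6 of 25 of cluster 5, 15 of 130 of cluster 0, 9 of 183 of cluster 1 and 0 of 31 of cluster 4.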
